A study of Mus musculus with 16 samples.

Results

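The regions described here were open in bone marrow-derived macrophages under 3 of 4 conditions and had no listed peak under the fourth, the combination of an LXR agonist with LPS. ATAC-seq peaks of the 4 conditions that overlapped by at least 1 bp were merged into 37648 regions, and the 1122 regions that held a peak of vehicle-treated cells (Veh), of agonist-treated cells (T0) and of LPS-treated cells (LPS) but none of cells given both (T0-LPS) were kept. They are called T0-LPS-lost regions below. Because presence in the 4 peak lists chose them, their presence and their peak scores are given as a description, with no test.

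ATAC-seq marks open chromatin by inserting sequencing adaptors with the Tn5 transposase. All cells were macrophages grown from the marrow of female C57BL/6J mice aged 8 to 10 weeks and kept for 1 day in medium without serum, and 4 libraries of 50000 cells each were made per group. On day 8 the Veh group received DMSO and the T0 group 500 nM T0901317, a synthetic agonist of both LXR isoforms, for 3 h. The LPS and T0-LPS groups received the same 3 h of DMSO or T0901317 and then 10 ng/mL LPS for 2 h in the same medium, so they were harvested 5 h after the agonist or DMSO was added, against 3 h in the other groups, and the effect of LPS and of the longer culture cannot be told apart. The 4 libraries of a group were pooled before peaks were called, so each group has 1 list, no value has a replicate error, and every interval below is a Wilson 95% interval that covers counting error only.

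The deposited lists held 35551 peaks for Veh, 29839 for T0, 33181 for LPS and 31085 for T0-LPS, after the removal of peaks outside macrophage enhancers. Read depth was not given in the files, and a list grows with the depth of its pooled libraries. Veh peaks lay within 1 kb of the transcription start site (TSS) of 7 of 8 macrophage marker genes, Csf1r being the exception, of 0 of 4 T cell, 1 of 4 B cell, 1 of 4 neutrophil and 0 of 4 epithelial marker genes. The B cell and neutrophil markers with such a peak were Ms4a1 and S100a8. Because the lists were limited to macrophage enhancers, these counts check the identity of the cells only in part.

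LXRα and LXRβ are nuclear receptors for oxysterols that bind DNA with RXR, typically at direct repeats of the nuclear receptor half-site spaced by 4 bases (DR4), and drive cholesterol efflux and lipid synthesis genes. In macrophages their agonists are also known to dampen inflammatory genes that LPS induces through TLR4 and NF-κB. Macrophage enhancers are selected by lineage factors such as PU.1, C/EBP and RUNX1 together with AP-1, and signal-dependent factors such as NF-κB and the interferon-responsive IRF proteins then act at them.

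Of the 27561 regions with a peak in Veh, T0 and LPS, 4.07% lacked a T0-LPS peak. This was not the most frequent single absence. Of the regions held by the 3 other lists, 6.63% (1876 regions) lacked a T0 peak, 1.21% (323 regions) lacked an LPS peak and 0.193% (51 regions) lacked a Veh peak, in the order of the lengths of the lists. When each list was shortened to its 29839 highest-scoring peaks, the length of the T0 list, 743 regions were missing only from T0-LPS, 745 only from T0, 687 only from LPS and 523 only from Veh. Of those 743 regions, 577 (77.7%) overlapped a T0-LPS-lost region, and these were 51.4% of the 1122.

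The sequences of 5 T0-LPS-lost regions are shown because they hold the motifs on which the sequence comparisons below turn. For each of 7 motifs the region is the highest-scoring one (by its lowest score percentile) among those with no skipped peak number in the T0-LPS list, as explained below. The 200 bases at its centre are given in GRCm38, plus strand, 5′ to 3′, with the motif named for it in capitals, and bases are counted from 1 at the 5′ end. A match is a description of the letters and not a measured binding site.

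The region nearest to Zfp217, a gene for a zinc finger transcription factor, held an AP-1 match at bases 43 to 49 and a PU.1 match at bases 68 to 75. It lay 17693 bp upstream of the gene and scored 364 in Veh, 237 in T0 and 242 in LPS.
Zfp217 region, chr2:170160271-170160470: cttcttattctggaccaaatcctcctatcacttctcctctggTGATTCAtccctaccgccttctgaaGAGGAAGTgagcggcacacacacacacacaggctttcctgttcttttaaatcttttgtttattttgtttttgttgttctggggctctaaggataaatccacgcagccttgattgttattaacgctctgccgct
The region nearest to Ell2, an elongation factor of RNA polymerase II, held a C/EBP match at bases 92 to 99. It lay 163989 bp upstream of the gene and scored 396 in Veh, 214 in T0 and 199 in LPS.
Ell2 region, chr13:75542668-75542867: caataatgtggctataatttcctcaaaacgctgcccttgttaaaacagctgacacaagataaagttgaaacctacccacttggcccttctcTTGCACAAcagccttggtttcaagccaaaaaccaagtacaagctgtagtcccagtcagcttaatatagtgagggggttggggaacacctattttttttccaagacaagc
The region nearest to C1qtnf2, which encodes a secreted protein related to complement C1q and tumor necrosis factor, held an NF-κB match at bases 138 to 147, 1 of 11 candidate regions with such a match. It lay 3934 bp upstream and scored 261 in Veh, 206 in T0 and 208 in LPS.
C1qtnf2 region, chr11:43470242-43470441: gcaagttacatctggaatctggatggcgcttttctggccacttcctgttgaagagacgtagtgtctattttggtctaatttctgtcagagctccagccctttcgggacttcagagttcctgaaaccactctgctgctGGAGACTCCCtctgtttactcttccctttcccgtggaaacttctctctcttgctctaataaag
The region nearest to Clptm1 held a match to the motif of CTCF, the insulator-binding protein, at bases 80 to 91, 1 of 5 candidate regions. It lay 4054 bp upstream and scored 215 in Veh, 245 in T0 and 148 in LPS. It was also the T0-LPS-lost region within 100 kb of Apoe, which encodes apolipoprotein E.
Clptm1 region, chr7:19668987-19669186: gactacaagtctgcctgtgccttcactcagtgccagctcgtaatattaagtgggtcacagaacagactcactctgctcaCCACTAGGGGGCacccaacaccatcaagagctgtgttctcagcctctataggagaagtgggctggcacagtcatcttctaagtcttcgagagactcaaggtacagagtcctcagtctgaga
The region nearest to Mdm1 held a DR4 match at bases 155 to 170, whose second repeat is itself a half-site match, and another half-site on the opposite strand at bases 98 to 103. It lay 88594 bp upstream and scored 256 in Veh, 182 in T0 and 195 in LPS.
Mdm1 region, chr10:118053138-118053337: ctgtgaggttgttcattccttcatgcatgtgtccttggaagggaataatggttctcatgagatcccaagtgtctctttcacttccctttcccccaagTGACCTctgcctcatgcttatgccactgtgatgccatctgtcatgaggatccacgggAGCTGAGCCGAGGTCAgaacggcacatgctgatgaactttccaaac
All 5 lay between genes.

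The T0-LPS-lost regions held low-scoring peaks in the 3 lists that listed them. The score of a peak is the value given by the peak caller, and behaves as 10 times the -log10 of its q-value. The median best score was 208 in Veh, 129 in T0 and 125 in LPS. For comparison, regions in all 4 lists had medians of 489, 341 and 394. Because scores grow with depth, each was also ranked within its own list as a percentile, in which 0 is the lowest and 100 the highest peak. In T0-LPS-lost regions the median percentile was 26.5 in Veh (interquartile range 17.4 to 35.7), 13.9 in T0 (7.04 to 23.7) and 12.7 in LPS (6.32 to 20.3). In regions missing only from LPS it was 25.9 in Veh, 15.1 in T0 and 9.86 in T0-LPS.

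In 805 of the 1122 regions (71.7%) the percentile was lower in both T0 and LPS than in Veh, and in 58 (5.17%) it was lower in neither. Regions in all 4 lists whose Veh score fell in the interquartile range of the T0-LPS-lost regions (158 to 264.75, 3631 regions, called the Veh score band) were lower in both in 44.6% and in neither in 11.6%. The sets differed most in LPS. The median percentile of the Veh score band was 28.5 in Veh, 18.2 in T0 and 27.1 in LPS, and its median in T0-LPS was 22.9. The lowest of the 3 percentiles was that of LPS in 580 T0-LPS-lost regions (51.7%), that of T0 in 484 (43.1%) and that of Veh in 58 (5.17%). In the Veh score band it was that of LPS in 25.4%, that of T0 in 63.0% and that of Veh in 11.6%.

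**Figure D1:**
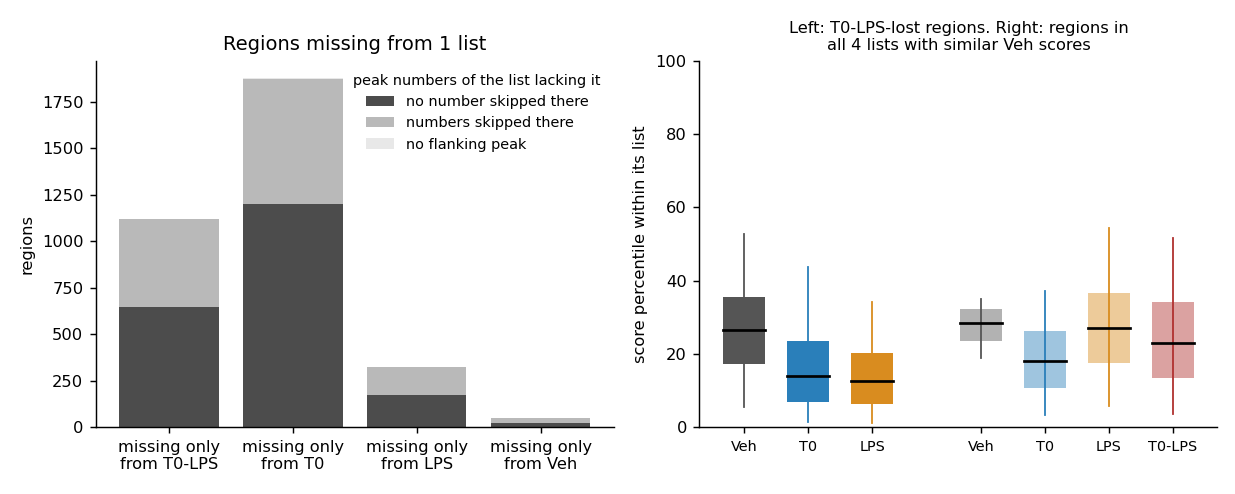
Left, the number of regions missing from 1 list only (y axis), split by whether the list lacking the region skips peak numbers between its flanking peaks. Right, score percentiles (y axis, 0 to 100) of the 1122 T0-LPS-lost regions and of the 3631 regions of the Veh score band in each list, with the median (black line), the 25th to 75th percentile (box) and the 5th to 95th percentile of regions (thin line). The T0-LPS-lost regions have a median of 12.7 in LPS against 27.1 in the Veh score band.

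The share of regions lost fell with the LPS score. Among regions with peaks in Veh, T0 and LPS, 34.9% of those in the lowest decile of LPS scores (40 to 113) lacked a T0-LPS peak, 21.3% in the second (114 to 152), 7.92% in the third (153 to 199) and 2.22% in the fourth (200 to 254). In each of deciles 5 to 10 the share was at most 0.454%. The lowest 3 deciles held 1024 (91.3%) of the T0-LPS-lost regions. A best score under 200 in Veh, T0 and LPS alike was found in 502 regions, a score of at least 200 in all 3 in 48, and a score at or above the median of the list in all 3 in 20.

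**Figure D2:**
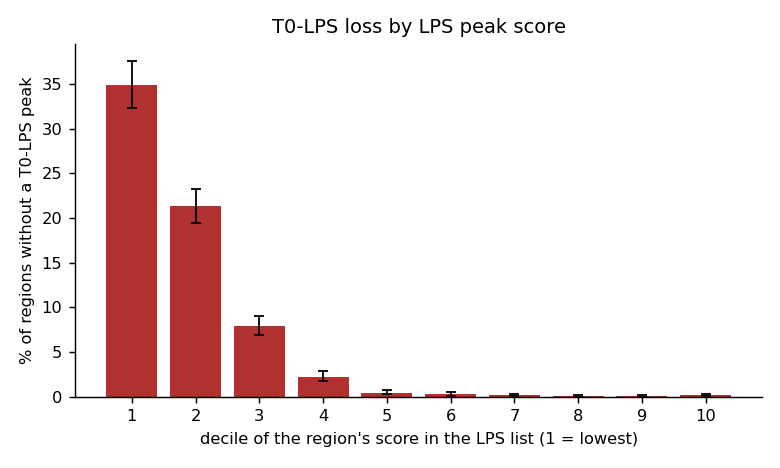
Share of regions with peaks in Veh, T0 and LPS that had no T0-LPS peak (y axis, percent), by the decile of the region's score within the LPS list (x axis). Error bars are Wilson 95% intervals. The share is 34.9% in the lowest decile and 2.22% in the fourth.

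Whether a T0-LPS peak was not called, or was called and then removed as lying outside enhancers, can be read in part from the peak names, which end in a number. These numbers rose along the chromosome in all 31056 pairs of neighbouring T0-LPS peaks, and the T0-LPS list skips 11747 of its 42832 numbers. A skipped number was read as belonging to a peak discarded by the filter for enhancers, although no source says how the peaks were numbered. For 647 of the 1121 T0-LPS-lost regions with a T0-LPS peak on both sides, the numbers of these flanking peaks followed each other directly, so no numbered T0-LPS peak had been removed there. For the other 474 (42.3%, 39.4 to 45.2) at least 1 number was skipped, which leaves room for a removed peak somewhere between the flanking peaks. Skipped numbers were counted for each region, so regions between the same flanking peaks share them. T0-LPS gaps as long as the middle 50% of these regions' gaps (17627 to 139410 bp) skipped a number in 35.0% of 12116 cases, and T0-LPS-lost regions in gaps of that length had one in 43.9% of 561. Of the 53 flanked regions with all 3 percentiles at or above 30, 41 (77.4%) had a skipped number, against 42.1% where the lowest percentile was 10 to 30 and 39.5% where it was under 10.

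The 10 T0-LPS-lost regions that ranked highest in their 3 lists include very strong peaks. The highest, chr17:17004547-17005402, lay 59138 bp upstream of Zfp960, scored 1709 in Veh, 1240 in T0 and 1332 in LPS, and 1 number was skipped between its flanking T0-LPS peaks. The next, chr8:4165833-4166626, lay 337 bp upstream of Evi5l, scored 1369, 1186 and 1399, and had 3 skipped numbers. A region in an intron of Ltbp1, which encodes a protein that holds latent TGF-β in the matrix, scored 1294, 1103 and 1305, with 6 skipped. All 3 were above the 97th percentile in each list that held them. The remaining 7 were nearest to Intu, Gm14440, Mtus1, Gm21887, Cd2, Phf11a and Gnrh1. Of these, the Gm21887 region on chromosome X had no T0-LPS peak on one side, and the other 6 had from 1 to 14 skipped numbers.

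Where no number was skipped, the highest-scoring region lay in a coding exon of Zcchc2 at chr1:106030359-106030718. It scored 483 in Veh, 266 in T0 and 279 in LPS, and the nearest T0-LPS peak was 39580 bp away. A second region, in an intron of Zcchc2 3347 bp into the gene, scored 280, 209 and 213. The Zfp217 region printed above ranked next after the first. An intronic region of Snx29 scored 336, 223 and 253, and one in an intron of Nfatc2, which encodes the transcription factor NFAT1, scored 270, 252 and 231. A region in 4930562C15Rik, the C1qtnf2 region printed above, the start of Ttc30a2, an intron of Ssbp3 and an intron of Tti2 completed the 10, with scores from 254 to 376 in Veh, 197 to 233 in T0 and 207 to 243 in LPS. None of the 10 reached the 62nd percentile in any list.

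The nearest T0-LPS peak lay a median of 3740 bp from a T0-LPS-lost region. It was within 500 bp for 188 regions (16.8%), within 1 kb for 301 (26.8%) and over 50 kb away for 118 (10.5%). The 5 regions just inside the rule were separated from a T0-LPS peak by 71 to 83 bp and lay near Dennd2a, Coa6, Bcl2a1d, 9430038I01Rik and Glud1. The Dennd2a region scored 270, 153 and 219 in Veh, T0 and LPS, and the Glud1 region 141, 71 and 71. Just outside it, the smallest overlaps of a T0-LPS peak with the other peaks of a region were 124 bp at Tlr8, 133 bp at Msl1, 158 bp at Itgb5, 161 bp at Mgat4b and 161 bp at Cltc, and 0 regions overlapped by under 100 bp. The Tlr8 region scored 113, 89, 92 and 88 in Veh, T0, LPS and T0-LPS.

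The share of T0-LPS-lost regions at promoters was below that of the regions in all 4 lists, with intervals that did not overlap and with no test. Of the 1121 on assembled chromosomes, 259 (23.1%, 20.7 to 25.7) were centred no more than 1 kb from a TSS, against 39.2% (37.6 to 40.8) of the Veh score band and 43.1% of regions in all 4 lists. The share in regions missing only from T0 was 31.2% (29.2 to 33.4), and in those missing only from LPS 22.7% (18.5 to 27.6), an interval that contains the value for T0-LPS-lost regions. A further 36.3% lay 1 to 10 kb, 32.7% 10 to 50 kb and 7.85% over 50 kb from a TSS. By the annotation at the midpoint, 597 (53.3%) were intronic, 388 (34.6%) between genes, 75 (6.69%) in an untranslated region, 37 (3.30%) in a coding exon and 24 (2.14%) in a non-coding exon. In the Veh score band 44.3% were intronic and 12.6% in an untranslated region.

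**Figure D3:**
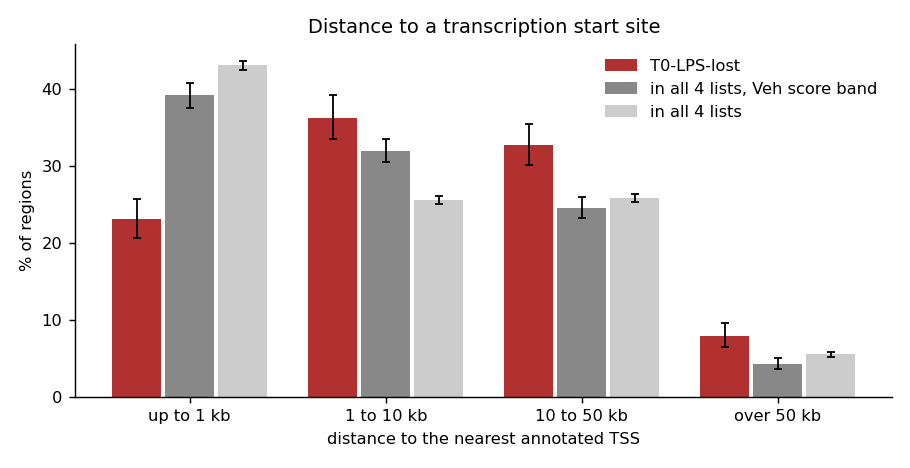
Share of regions (y axis, percent) by distance from the region's midpoint to the nearest annotated TSS (x axis) for the 1121 T0-LPS-lost regions, the Veh score band and all regions in 4 lists, with Wilson 95% intervals. Within 1 kb the T0-LPS-lost regions have 23.1%, below the 39.2% of the Veh score band.

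The promoter difference was also present among weak regions. Of regions in the lowest 3 LPS deciles, 13.5% (12.0 to 15.1) of those within 1 kb of a TSS were lost, 20.3% (18.5 to 22.2) of those at 1 to 10 kb, 20.5% (18.6 to 22.6) at 10 to 50 kb and 24.8% (20.5 to 29.8) beyond 50 kb. Base composition moved with this. The median GC content of the central 200 bases was 50.0% in T0-LPS-lost regions and 53.0% in the Veh score band, and of weak regions with at least 60% GC 10.8% (9.21 to 12.5) were lost, against 20.4% to 21.3% in the 3 lower GC classes. Under 60% GC, 17.7% (15.2 to 20.6) of weak regions within 1 kb of a TSS and 21.6% (20.2 to 23.0) of those farther away were lost, and at 60% GC or more 10.4% (8.64 to 12.4) and 12.2% (8.92 to 16.4). Within each of these GC classes the intervals of the near and the farther regions overlapped. The part of base composition in the promoter difference was not tested further.

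The sequence motifs searched in the central 200 bases, on both strands, were the half-site AGGTCA, DR4 as a pair of half-sites in the same direction 4 bases apart with at most 2 mismatches in all, AP-1 as TGANTCA, PU.1 as GAGGAAGT, C/EBP as TTGCNNAA, RUNX as AACCACA, an E-box as TCACGTG, CRE as TGACGTCA, an ETS promoter motif as CCGGAAG, the GC box as GGGCGG, an interferon-type element (ISRE) as GAAA repeated after 2 bases, and the NF-κB and CTCF consensus motifs. Half-site matches can be part of DR4 matches. None of these 13 motifs was found in 38.4% of T0-LPS-lost regions, against 30.2% of the Veh score band and 30.1% of all regions. The share was 34.0% in regions missing only from LPS, 37.3% in the 51 missing only from Veh and 29.9% in those missing only from T0.

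PU.1, the lineage factor that opens macrophage enhancers, had its motif in 129 T0-LPS-lost regions (11.5%, 9.77 to 13.5), against 7.45% (6.64 to 8.35) of the Veh score band, 8.22% of regions missing only from T0 and 8.55% of all regions. In regions missing only from LPS it was 9.66% (6.89 to 13.4), which contains 11.5%. Of the weak regions, 22.3% (18.9 to 26.1) with a PU.1 match and 18.1% (17.0 to 19.1) without were lost, and these intervals overlapped. The PU.1 share was 12.6% (10.6 to 15.0) in the 862 T0-LPS-lost regions over 1 kb from a TSS, and 10.5% (9.27 to 11.8) in such regions of the band, so that among distal regions the intervals overlapped. Within 1 kb of a TSS it was 7.72% (5.05 to 11.6) against 2.75% (2.02 to 3.73).

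NF-κB, which LPS activates, had its motif in 16 T0-LPS-lost regions (1.43%, 0.880 to 2.31). The share was 4.47% (3.84 to 5.19) in the Veh score band, 7.74% (6.61 to 9.04) in regions missing only from T0, and 4.30% in all regions. In regions missing only from LPS it was 0.935% (0.318 to 2.71), an interval that contains the value for T0-LPS-lost regions. Over 1 kb from a TSS the NF-κB share was 0.928% (0.471 to 1.82) against 4.72% (3.91 to 5.68) in the band. Within 1 kb it was 3.09% (1.57 to 5.98) against 4.08% (3.17 to 5.24), so that near a TSS the intervals overlapped. Among weak regions, 11.2% (6.53 to 18.6) of the 107 with an NF-κB match and 18.6% (17.6 to 19.6) of those without were lost, and these intervals overlapped. The ISRE was in 2.85% (2.03 to 4.00) of T0-LPS-lost regions, 3.94% (3.36 to 4.63) of the band and 7.63% (6.51 to 8.92) of regions missing only from T0, with 1.25% (0.486 to 3.16) of regions missing only from LPS and 3.79% of all regions.

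For LXR-type elements the intervals of the T0-LPS-lost regions and of the Veh score band overlapped. A half-site was found in 146 (13.0%, 11.2 to 15.1), against 11.6% (10.6 to 12.6) of the band and 11.9% of all regions. A DR4 match was found in 31 (2.77%, 1.95 to 3.90), against 2.29% (1.85 to 2.83) of the band and 1.94% of all regions. In regions missing only from LPS the shares were 16.2% (12.6 to 20.6) for the half-site and 3.43% (1.92 to 6.03) for DR4. Of the weak regions, 23.1% (16.5 to 31.4) with a DR4 match and 18.3% (17.3 to 19.4) without were lost.

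Of the other enhancer motifs, AP-1 was in 14.4% (12.4 to 16.5) of T0-LPS-lost regions, 15.3% of the band and 16.6% of all regions, C/EBP in 9.55% (7.96 to 11.4), 11.3% and 10.7%, and RUNX in 7.58% (6.17 to 9.28), 6.57% and 6.94%. In regions missing only from LPS these shares were 19.0% (15.1 to 23.7), 10.6% (7.68 to 14.4) and 8.41% (5.84 to 12.0). Over 1 kb from a TSS the AP-1 share was 16.2% (13.9 to 18.9) against 21.6% (20.0 to 23.4) in the band, and the C/EBP share 9.51% (7.73 to 11.7) against 14.8% (13.4 to 16.3). Closer to a TSS the order was reversed, with intervals that overlapped. There the AP-1 share was 8.11% (5.36 to 12.1) against 5.35% (4.30 to 6.65) in the band. The C/EBP share was 9.65% (6.62 to 13.9) against 5.92% (4.80 to 7.27). Of the weak regions at any distance, 17.3% (14.9 to 20.0) with an AP-1 match and 18.7% (17.6 to 19.8) without were lost. For C/EBP these shares were 17.8% (14.8 to 21.2) and 18.5% (17.5 to 19.6), and for both motifs the intervals overlapped. The GC box and the ETS motif, typical of promoters, had lower shares in T0-LPS-lost regions than in the band. The GC box was in 14.2% (12.3 to 16.3), against 25.9% (24.5 to 27.4) of the band and 24.1% of all regions, and the ETS motif in 3.21% (2.33 to 4.41), against 5.43% (4.74 to 6.22) and 5.99%. In regions missing only from LPS the GC box share was 12.5% (9.29 to 16.5) and the ETS share 4.98% (3.09 to 7.94), each interval containing the value for T0-LPS-lost regions. Within 1 kb of a TSS the GC box share was 35.9% (30.3 to 41.9) against 50.8% (48.2 to 53.4). The ETS share there was 5.02% (2.96 to 8.40) against 10.2% (8.74 to 11.9). Farther away the GC box share was 7.66% (6.06 to 9.63) against 9.89% (8.71 to 11.2). The ETS share was 2.67% (1.78 to 3.97) against 2.36% (1.80 to 3.08), with overlapping intervals for both. Of the weak regions, 12.8% (11.0 to 14.8) with a GC box and 19.9% (18.8 to 21.2) without were lost. For ETS these shares were 12.6% (9.19 to 17.1) and 18.7% (17.7 to 19.8). Neither pair overlapped. CRE was in 0.535% of T0-LPS-lost regions, 1.49% of the band and 1.09% of all regions. In the same order the E-box was in 3.12%, 3.28% and 2.74%, and CTCF in 1.16%, 1.05% and 0.851%.

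**Figure D4:**
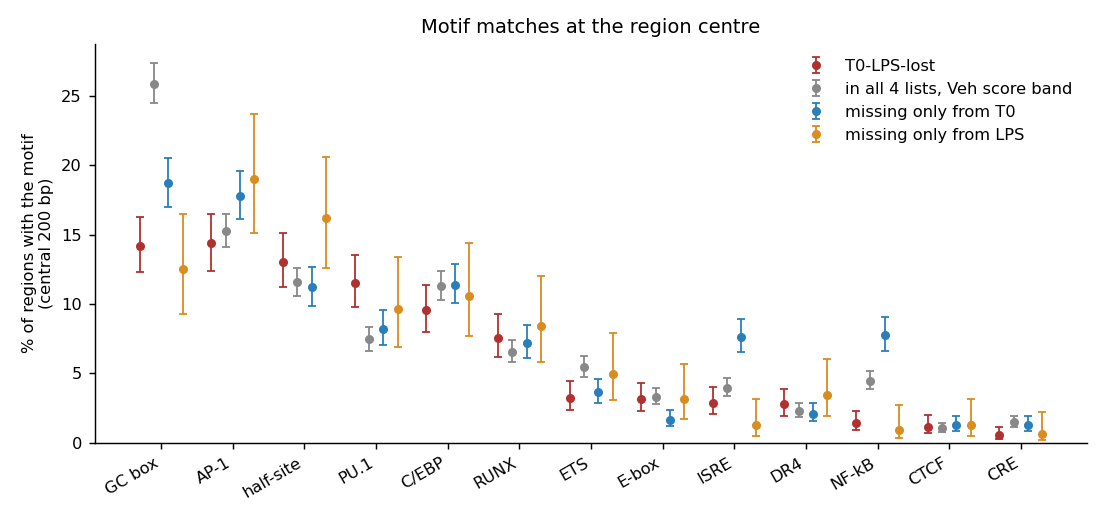
Share of regions whose central 200 bp held each motif (y axis, percent) for the T0-LPS-lost regions, the Veh score band, and regions missing only from T0 or only from LPS. Bars are Wilson 95% intervals. The GC box (14.2%) and NF-κB (1.43%) shares of T0-LPS-lost regions lie below those of the band and near those of regions missing only from LPS (12.5% and 0.935%).

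The lost regions were spread over the genome. On chromosomes 1 to 19 and X, 2.68% (2.03 to 3.54, chromosome 11) to 5.64% (4.56 to 6.94, chromosome 9) of the regions with peaks in Veh, T0 and LPS were lost. Another T0-LPS-lost region lay within 10 kb of 68 (6.06%), within 50 kb of 171 (15.2%) and within 100 kb of 264 (23.5%). The same counts were not made for another set of regions, so they do not show whether the lost regions cluster. Neighbouring regions that kept a T0-LPS peak ranked lower than those elsewhere in each of 3 lists. Regions in all 4 lists within 10 kb of a T0-LPS-lost region had a median percentile of 55.7 in Veh, 51.9 in LPS and 49.5 in T0-LPS, against 62.8, 59.9 and 57.2 for those over 50 kb from any. The medians of the differences between lists lay closer together. Those within 10 kb differed by a median of -1.14 percentile points between LPS and T0-LPS, those at 10 to 50 kb by -1.49 points and those farther away by -1.61 points. Between Veh and T0 the medians were -4.96, -5.98 and -5.28 points.

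The T0-LPS-lost regions had 999 different nearest protein-coding genes, of which 895 were nearest to 1 region, 87 to 2, 16 to 3 and 1, Anxa2, to 4. The genes named here were picked by this count, which can grow with the number of regions near a gene. Of the regions with peaks in Veh, T0 and LPS nearest to it, Anxa2 had lost 4 of 9. Dram2 had lost 3 of 4, Ell2 3 of 5, Hpgd 3 of 6 and Fam49b 3 of 14, against 4.07% of all such regions. Anxa2 encodes annexin A2, a phospholipid-binding protein of the membrane. Its 4 regions lay 10946 bp upstream of the start and 1884, 6242 and 12610 bp into the gene. They scored 121, 184, 269 and 146 in Veh, 80, 200, 142 and 76 in T0, and 154, 136, 90 and 87 in LPS, and no peak number was skipped at any of them. All 4 were below the 40th percentile in each list. At the Anxa2 start itself a region kept a peak in every list, with scores of 331, 116, 148 and 128 in Veh, T0, LPS and T0-LPS. A region 4684 bp into the gene had a peak in LPS (304) and T0-LPS (174) and none in Veh or T0.

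Hpgd, which encodes the enzyme that inactivates prostaglandins, was nearest to 3 regions, 19202, 20793 and 117638 bp downstream of its start. They scored 397, 382 and 261 in Veh, 286, 197 and 164 in T0 and 244, 244 and 118 in LPS. All 3 lay between the same flanking T0-LPS peaks, and the 1 number skipped there is shared by them. The first 2 lay 11995 and 13646 bp from the nearest T0-LPS peak. The other genes with 3 regions, taken in alphabetical order, included Dram2, a lysosomal membrane protein linked to autophagy, Ell2 and Fam49b, a regulator of the actin cytoskeleton. The Dram2 region 554 bp into the gene held AP-1, PU.1, half-site and DR4 matches together and scored 134, 75 and 136. At Ell2 the region in the gene 31581 bp from the start scored 266 in Veh, 271 in T0 and 186 in LPS, and that at 6410 bp scored 157, 89 and 212, so no common order of the lists held at this gene. The 3 regions nearest to Fam49b scored 191 to 259 in Veh, 118 to 153 in T0 and 111 to 157 in LPS. The one 29010 bp upstream of Fam49b lay in a coding exon of Asap1.

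**Figure D5:**
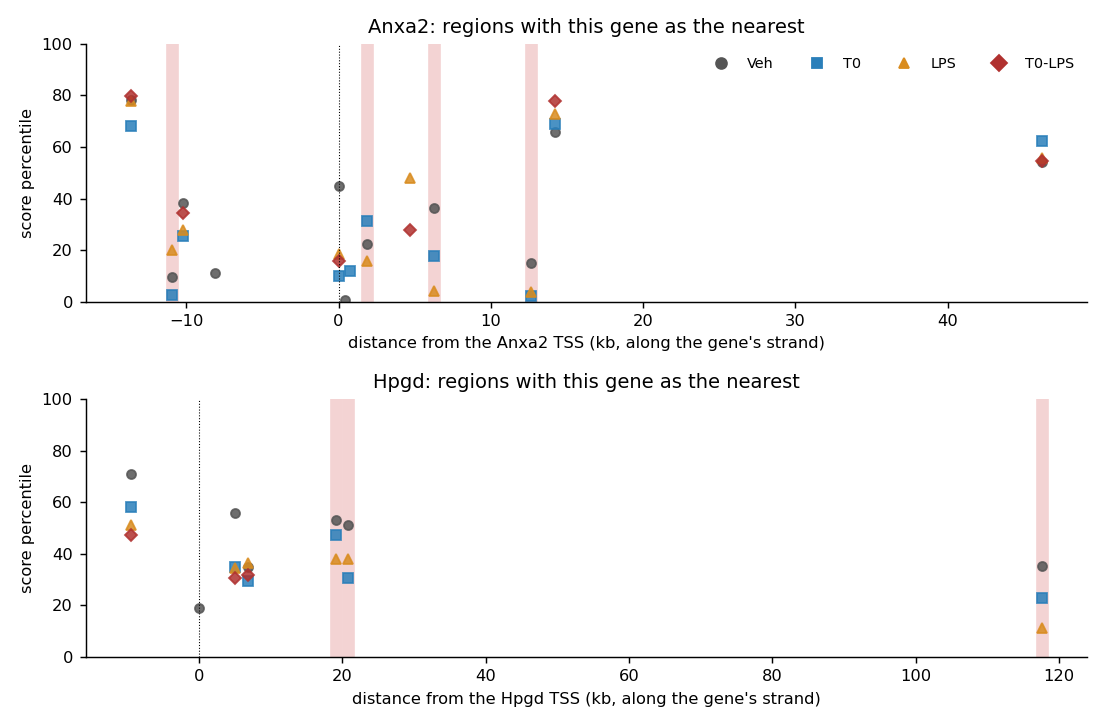
Score percentiles (y axis) of all merged regions with Anxa2 (top) or Hpgd (bottom) as the nearest gene, by distance from the TSS along the gene's strand (x axis, kb). Circles are Veh, squares T0, triangles LPS and diamonds T0-LPS, and pink bands mark the 4 and 3 T0-LPS-lost regions, where no diamond is drawn. Regions nearby, such as that 14247 bp into Anxa2, have a T0-LPS peak at the 78.0th percentile.

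Of all 21840 protein-coding genes, 3091 (14.2%) had a T0-LPS-lost region within 100 kb of a TSS. Of 220 genes in 9 lists of macrophage biology and 1 of housekeeping genes, 63 did, 8 of them housekeeping genes. Listed genes had a median of 9 regions with peaks in Veh, T0 and LPS within 100 kb, against 4 for all genes, so the share of nearby regions that were lost is the closer comparison. Over all genes 3.98% of the regions with peaks in Veh, T0 and LPS within 100 kb were lost. The share near the listed genes ran from 1.95% (0.761 to 4.91, leukocyte adhesion and migration) to 6.52% (3.77 to 11.1, housekeeping), and the interval of each of the 10 lists contained 3.98%. A nearest or nearby gene was not shown to be the gene that a region acts on.

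Near TLR4 signalling genes, 9 of 181 regions (4.97%, 2.64 to 9.18) were lost and 8 of 22 genes had such a region. The Ikbkg region, 1791 bp into the gene for NEMO, the regulatory subunit of the IκB kinase, scored 122 in Veh, 98 in T0 and 143 in LPS. A region near Irak3, which encodes the inhibitory kinase IRAK-M, scored 265, 135 and 78, and one in a coding exon of Map3k8, the kinase TPL2, scored 202, 176 and 81. In the latter 2 the LPS score was the lowest of the 3, and in Ikbkg the highest.

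Near genes of NF-κB subunits and inhibitors 3 of 138 regions (2.17%, 0.742 to 6.20) were lost. The one with a listed gene as its nearest lay 71897 bp downstream of the start of Nfkbiz, an atypical IκB protein that LPS induces, and scored 202, 152 and 127. Near cytokine and chemokine genes 5 of 187 (2.67%, 1.15 to 6.11) were lost, and 6 of 31 genes (Tnf, Il10, Il27, Csf3, Cxcl9 and Cxcl10) had one within 100 kb. The region nearest to Csf3, the gene for the neutrophil growth factor G-CSF, lay in an intron of Med24 and scored 132, 85 and 127, with a T0-LPS peak 395 bp away. Near adhesion and migration genes 4 of 205 were lost, at Itgb2, Ccrl2 and the neighbouring receptor genes Fpr1 and Fpr2. The Itgb2 region, 6807 bp upstream of this β2 integrin gene, scored 178, 56 and 102, and the Fpr1 region 118, 98 and 104.

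Near genes of LXR, RXR and their cofactors 4 of 99 regions (4.04%, 1.58 to 9.93) were lost, at Rxra, Tbl1x, Tbl1xr1 and Ncoa2. The region 219 bp upstream of Rxra, the gene for the DNA-binding partner of LXR, scored 112, 68 and 110 and had no skipped number. It is named to complete the 4, after its values were seen. Those at the other genes had at least 1. At Tbl1xr1 and Tbl1x, which encode subunits of the NCoR corepressor complex, regions scored 299, 133 and 126, and 249, 84 and 101. The region 396 bp upstream of the coactivator gene Ncoa2 scored 159, 89 and 119. Beyond 100 kb, and so not among the 4, a region 146293 bp downstream of the start of Nrip1, a nuclear receptor corepressor, scored 464, 381 and 377, with 10 skipped T0-LPS numbers, and a second, 159110 bp upstream, scored 199, 156 and 83, with 1.

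Near LXR target genes 7 of 134 regions (5.22%, 2.55 to 10.4) were lost, and 9 of 22 genes had one. The region in an intron of Abca1, the transporter that exports cholesterol to apolipoprotein A-I, lay 4288 bp into the gene and scored 397 in Veh, 232 in T0 and 226 in LPS, with 1 skipped number. The region 690 bp upstream of Scd1, which encodes a fatty acid desaturase, scored 199, 133 and 217, with a T0-LPS peak 220 bp away and no skipped number. The region 1980 bp into Tgm2, a transglutaminase of apoptotic cell clearance, scored 137, 102 and 109. A region 122852 bp upstream of Mylip, the ubiquitin ligase that degrades the LDL receptor, lay beyond 100 kb and is not among the 7, and scored 252, 172 and 111.

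Near macrophage transcription factor genes 6 of 275 regions (2.18%, 1.00 to 4.68) were lost. The 5 named regions here were nearest to Cebpb, Klf4, Klf6, Runx1 and Cebpa, and the first 4 of these lay over 100 kb from the gene, so they are not among the 6. The Klf4 region scored 150 in Veh, 168 in T0 and 175 in LPS, in rising order, whereas that of Klf6 scored 279, 156 and 126. The Cebpa region, 746 bp upstream, scored 135, 90 and 139 and lay 174 bp from a T0-LPS peak. Near interferon pathway genes 6 of 185 (3.24%, 1.49 to 6.89) were lost. The regions at Ifngr1, a subunit of the interferon-γ receptor, Irf2, an interferon regulatory factor, and Rsad2, which encodes the antiviral protein viperin, scored 250, 204 and 265 in Veh, 170, 166 and 134 in T0, and 156, 135 and 95 in LPS, falling in that order at each.

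Near phagocytosis and lysosome genes 12 of 204 regions (5.88%, 3.40 to 10.00) were lost, and 9 of 22 genes had one. The region in Lamp2, a lysosomal membrane protein, scored 234, 189 and 208. The protease gene Ctsb had 3 within 100 kb, of which 1 was nearer to another gene, and the others scored 304, 257 and 142 upstream of the gene and 114, 52 and 126 within it. Regions upstream of the Fc receptor gene Fcgr3 and of Gpnmb, a lysosomal glycoprotein of lipid-loaded macrophages, scored 113, 133 and 146, and 141, 67 and 96. Near the 20 housekeeping genes, 12 of 184 regions were lost and 8 genes had one. The 2 Actb regions scored 160 and 193 in Veh, 100 and 87 in T0 and 97 and 125 in LPS, and regions nearest to Ywhaz and Eef1a1 scored 157 to 214 in Veh.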

How the data were processed

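ATAC-seq was performed on 16 libraries, 4 per group. Per the methods and the submitters' processing notes, the authors trimmed adaptors with cutadapt, aligned reads with Bowtie2 (mm10), removed PCR duplicates with SAMtools, called peaks with MACS2 on the 4 libraries of a group together, and kept peaks at macrophage enhancers with bedtools. The authors deposited 1 peak list per group, whose score column holds whole numbers from 31 upward. No header states the unit. The values behave as 10 times the -log10 q-value, and were used to rank peaks within a list. Depth was not given in the files.

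Peaks were merged where they overlapped by at least 1 bp, with a script in Python 3.11.15, pandas 2.3.3, numpy 2.4.6 and pysam 0.24.0, tested on simulated lists. A percentile is the mean rank of a peak's score over the length of its list. All peaks on assembled chromosomes ended within the GRCm38 chromosome lengths. TSSs were taken from GENCODE vM21 basic, with protein-coding transcripts for nearest genes, and sequence from the RefSeq copy of GRCm38. Of 221 listed genes 220 were matched by symbol. The members, gene lists and motifs were chosen with earlier results of these data known. Members were ranked by their lowest percentile over Veh, T0 and LPS. The text names the 10 highest, the 10 highest with no skipped T0-LPS number, up to 5 per gene list whose nearest gene is listed, those at the 5 genes nearest to the most members (ties in alphabetical order), and the 5 closest to the rule on each side. The share lost by motif in the lowest 3 LPS deciles, the share lost by TSS distance and GC content, and the counts of single absences in lists of equal length were added after the data were seen. Groups were compared as pooled lists, without a test.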

Additional observations from a re-analysis of the deposited data

How the results depend on the processing

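The number of T0-LPS-lost regions stayed within 1.5 times of 1122 when peaks within 100 bp were merged, when Veh peaks were used without merging or with 50% reciprocal overlap, and when peaks scoring under 100 were left out of all lists. In this last case 1204 regions were found, of which 691 (57.4%) overlapped a T0-LPS-lost region, 61.6% of the 1122. It was 743 with lists of equal length, 647 without regions at skipped T0-LPS numbers and 48 with a score of at least 200 in Veh, T0 and LPS. The share within the TSS window was 15.4% at 500 bp and 31.9% at 2 kb. At 1 kb it was 30.2% with 50% reciprocal overlap, 20.5% for scores of at least 100, 16.7% for scores of at least 200, 19.5% with lists of equal length and 26.2% without skipped numbers; the Veh score band was not recomputed under these settings. Over the whole region, which is longer than 200 bp for most, the shares were 18.5% for the half-site, 4.19% for DR4, 19.0% for AP-1, 14.5% for PU.1, 16.1% for C/EBP and 2.68% for NF-κB. Within 10 kb, 16 of 220 listed genes had a T0-LPS-lost region, and 2.63% of all genes. The shares of these 6 motifs stayed within their intervals at the centre of the LPS peak, without skipped numbers and in the lowest 3 LPS deciles. No paired analysis was possible because each group has 1 list pooled over its 4 libraries. Without replicates or read counts, a peak just under the calling threshold cannot be told from closed chromatin.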
